A study of Mus musculus with 12 samples.

Results

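The genes described here are 33 markers of leukocytes and of the complement protein C1q, followed through laser-captured granulosa cells of mouse preovulatory follicles. They were taken by name from 18193 genes that had a probe set annotated to a single gene, and all 33 were measured. Where a gene had several such probe sets, the brightest on average was used. The 33 comprise 5 pan-leukocyte genes, 15 macrophage and monocyte genes, 3 C1q chain genes, 3 major histocompatibility complex (MHC) class II genes, 2 neutrophil genes, 3 lymphocyte genes and 2 cytokine genes.

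The study asked how preovulatory granulosa cells that lack estrogen receptor beta differ from wild-type cells before and after an ovulatory stimulus. The mice were 3 weeks old and were either wild type (WT) or bERKO, the estrogen receptor beta knockout. All of them had received pregnant mare serum gonadotropin (PMSG), a stand-in for follicle-stimulating hormone that makes follicles grow, and the PMSG groups were sampled after 48 h of it. The WT hCG and bERKO hCG groups had also received human chorionic gonadotropin (hCG), a stand-in for luteinizing hormone, and were sampled after 4 h of it. There were 3 arrays in each of the 4 groups, which the labels call biological replicates. The strain and the number of animals per array are not stated in the sources used here, so p-values measure only the spread between these arrays. Every sample was bulk RNA from captured cells, amplified from 25 ng, and in bulk RNA fewer cells of a type and less RNA per cell cannot be told apart.

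As background, the ovary holds resident macrophages outside the basement membrane of the follicle, and the granulosa layer of an intact follicle has no blood vessels. Around ovulation, macrophages, neutrophils and other leukocytes gather in the theca and stroma, and vessels later invade the follicle wall. C1q is the recognition subunit that starts the classical complement pathway. It is built from the A, B and C chains and is made mainly by macrophages. Ptprc encodes CD45, the surface phosphatase carried by nearly all white cells. Macrophages are further marked by the growth factor receptor Csf1r, the adhesion receptor Adgre1 (F4/80) and the mannose receptor Mrc1.

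Promoter stretches are shown for the genes on which the results turn and for which a window was at hand. These are Cd53, Lyz2, Mrc1 and Cd3e, which passed the test after hCG in bERKO, and C1qb, which had the widest range of all 33 genes over the arrays. Each stretch is the 250 bases before the RefSeq transcription start, written 5′ to 3′ on the strand of the gene, build GRCm38.p6. Capitals mark GAGGAA or its reverse complement TTCCTC, a core recognised by PU.1, the transcription factor of macrophages and B cells. No other motif was searched.
Cd53, chr3:106790150-106790399, minus strand: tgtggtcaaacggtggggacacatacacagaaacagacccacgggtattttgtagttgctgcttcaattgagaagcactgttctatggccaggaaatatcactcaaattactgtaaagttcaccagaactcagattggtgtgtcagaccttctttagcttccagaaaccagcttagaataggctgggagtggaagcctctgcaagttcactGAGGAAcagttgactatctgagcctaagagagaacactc
Mrc1, chr2:14229164-14229413, plus strand: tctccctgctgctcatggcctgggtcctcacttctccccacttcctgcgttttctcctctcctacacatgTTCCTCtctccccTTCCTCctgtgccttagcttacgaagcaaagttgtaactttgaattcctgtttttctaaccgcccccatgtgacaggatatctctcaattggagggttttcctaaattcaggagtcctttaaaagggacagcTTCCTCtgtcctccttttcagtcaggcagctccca
C1qb, chr4:136886201-136886450, minus strand: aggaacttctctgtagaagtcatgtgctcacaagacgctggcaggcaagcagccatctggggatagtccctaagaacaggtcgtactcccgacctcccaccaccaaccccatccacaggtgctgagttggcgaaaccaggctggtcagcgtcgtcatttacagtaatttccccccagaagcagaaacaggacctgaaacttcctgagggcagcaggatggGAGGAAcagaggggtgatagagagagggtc
Lyz2, chr10:117282273-117282522, minus strand: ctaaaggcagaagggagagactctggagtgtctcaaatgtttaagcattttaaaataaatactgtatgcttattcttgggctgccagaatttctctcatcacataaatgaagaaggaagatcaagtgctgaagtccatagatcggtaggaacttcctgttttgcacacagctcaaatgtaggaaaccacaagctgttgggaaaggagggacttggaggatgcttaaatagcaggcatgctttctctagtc
Cd3e, chr9:45009612-45009861, minus strand: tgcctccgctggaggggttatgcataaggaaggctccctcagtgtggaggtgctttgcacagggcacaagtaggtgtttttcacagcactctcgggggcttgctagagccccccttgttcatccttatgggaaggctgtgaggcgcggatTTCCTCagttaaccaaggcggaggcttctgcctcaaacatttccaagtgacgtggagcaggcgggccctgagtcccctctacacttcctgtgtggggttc
The letters occurred 1 time for Cd53, 1 time for Cd3e, 3 times for Mrc1, 1 time for C1qb and 0 times for Lyz2. Of the 28 windows of 25 members, 15 (53.6%) held them on either strand, against 7639 of all 32851 windows (23.3%). A match is a string of letters and not a measured binding site. Cd14, Cd52, Cd74, Adgre1, C1qa, Csf1r, Tyrobp and Ccl2 were not in the table of windows.

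All levels below are log2(intensity + 16) after quantile normalization, a scale whose lowest possible value is 4. A level of 5 corresponds to an intensity of 16 and is used here as the floor level. Levels of different probe sets are not comparable as amounts of RNA. A change is a difference of group means on this scale with its standard error (SE) and understates the change of dim genes. Each adjusted p comes from limma with Benjamini-Hochberg adjustment over all 18193 genes, and a gene is called below 0.05. The Gapdh 3'/5' ratio, a control that rises with degraded RNA, reached 32.16 for WT hCG replicate 1 and 23.74 for bERKO PMSG replicate 3, while the remaining 10 arrays had 4.72 to 11.19. The 11 granulosa markers measured averaged 10.92 to 12.18 on every array. Esr2, the targeted gene, averaged 9.56 ± 0.69 (SD, n = 3) in WT PMSG, 8.32 ± 0.28 in bERKO PMSG, 8.99 ± 0.46 in WT hCG and 8.33 ± 0.20 in bERKO hCG. Its genotype differences were -1.24 after PMSG and -0.66 after hCG (adjusted p = 0.307 and 0.397), and whether its probe set lies in the deleted part is not known here. Its hCG changes were -0.57 in WT and 0.02 in bERKO, and their difference was 0.58 (adjusted p = 0.486, 0.985 and 0.643).

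Most of the leukocyte genes lay close to the floor. Of the 33 genes, 4 (Laptm5, Csf1r, Cd68 and Fcer1g) were above the floor level on all 12 arrays, and 10 were above it on 6 arrays or fewer. For 27 genes the highest value on any array was under 8. Only Laptm5, C1qb, Ctss and Lyz2 reached 9 or more on any array, and all 4 did so on bERKO hCG replicates 1 and 2, C1qb also on bERKO PMSG replicate 3. The summed intensity of the 33 genes was 4208, 5128 and 1827 on the bERKO hCG arrays and 828 to 2248 on the other 9. The highest of those 9 was bERKO PMSG replicate 3, an array with a high Gapdh ratio. Of the 33 genes, 18 had their highest value on a bERKO hCG array (6, 7 and 5 on replicates 1, 2 and 3) and 5 on bERKO PMSG replicate 3, while the matching shares of all genes were not counted. Those 5 were Adgre1, Aif1, Itgam, Itgax and C1qa, all of them macrophage or C1q genes.

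**Figure D1:**
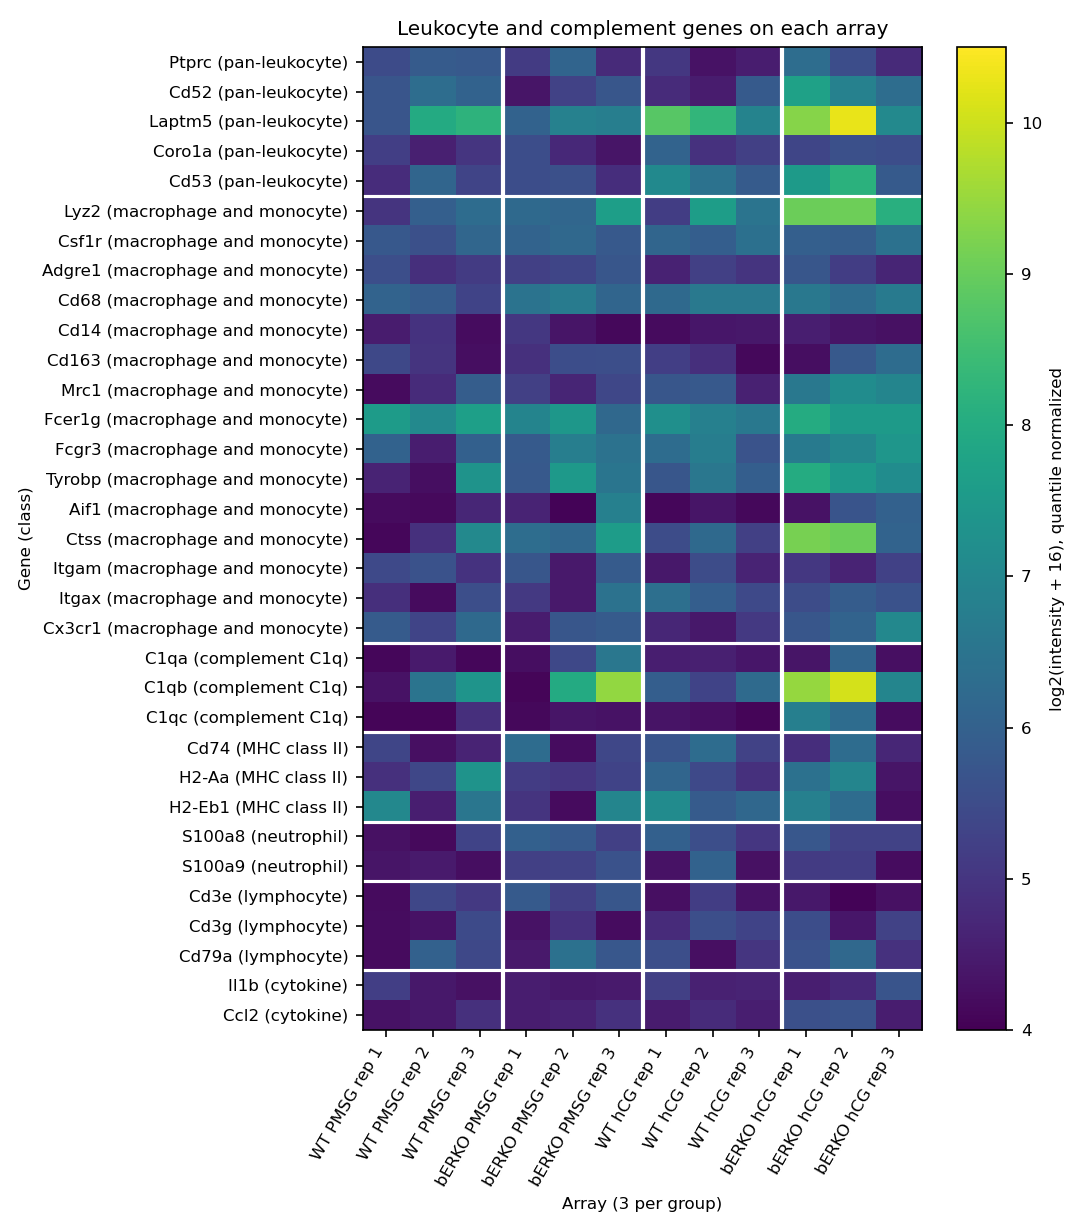
Level of each of the 33 genes (rows, grouped by class) on each of the 12 arrays (columns, 3 per group), as log2(intensity + 16) after quantile normalization and shown by colour. The bright cells above 9 belong to Laptm5, C1qb, Ctss and Lyz2 and lie on the bERKO hCG arrays, except for C1qb at 9.45 on bERKO PMSG replicate 3, and the neutrophil, lymphocyte and cytokine rows stay at or below 6.43.

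Among the pan-leukocyte genes, Cd52 and Laptm5 varied most. Cd52, a small glycoprotein on the surface of lymphocytes and myeloid cells, read 5.72, 6.33 and 6.04 in WT PMSG, 4.36, 5.28 and 5.75 in bERKO PMSG, 4.79, 4.50 and 5.85 in WT hCG, and 7.72, 6.86 and 6.33 in bERKO hCG. Its bERKO hCG arrays lay above those of bERKO PMSG and WT hCG, while the lowest of them equalled the highest WT PMSG array. Cd53, a tetraspanin of leukocytes, read 4.83, 6.11 and 5.34 in WT PMSG, 5.53, 5.59 and 4.85 in bERKO PMSG, 7.09, 6.45 and 5.87 in WT hCG, and 7.53, 8.15 and 5.85 in bERKO hCG. For Cd53 every bERKO hCG array lay above the bERKO PMSG arrays, and replicate 3 of bERKO hCG lay just below the lowest WT hCG array. Laptm5, a lysosomal membrane protein of blood cells, read 5.71, 7.98 and 8.21 in WT PMSG, 6.04, 6.86 and 6.78 in bERKO PMSG, 8.81, 8.28 and 6.91 in WT hCG, and 9.33, 10.28 and 7.05 in bERKO hCG. Ptprc stayed between 4.32 and 6.33 and was lowest in WT hCG (5.06, 4.32 and 4.53). Coro1a, an actin-binding protein of leukocytes, stayed between 4.36 and 6.06, and its groups overlapped in each comparison made.

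Of the 15 macrophage and monocyte genes, 9 had their highest array and 10 their highest group mean in bERKO hCG. In 2 of them, Lyz2 and Mrc1, every bERKO hCG array lay above the other 9 arrays. The shares of all genes with these patterns were not counted, so the counts describe these genes only and cannot show whether there is an excess. Lyz2, the lysozyme of macrophages and neutrophils, read 4.98, 5.98 and 6.31 in WT PMSG, 6.21, 6.15 and 7.65 in bERKO PMSG, 5.18, 7.63 and 6.51 in WT hCG, and 9.03, 9.06 and 8.11 in bERKO hCG. Mrc1, which takes up glycoproteins in tissue macrophages, read 4.19, 4.79 and 5.91 in WT PMSG, 5.22, 4.67 and 5.39 in bERKO PMSG, 5.75, 5.81 and 4.60 in WT hCG, and 6.61, 7.15 and 6.97 in bERKO hCG. Ctss, a lysosomal protease that trims antigens in presenting cells, was less even, with 4.11, 4.91 and 7.05 in WT PMSG, 6.32, 6.16 and 7.59 in bERKO PMSG, 5.51, 6.23 and 5.23 in WT hCG, and 9.17, 9.04 and 6.06 in bERKO hCG. Replicate 3 of bERKO hCG lay below every bERKO PMSG array. Tyrobp, the signalling adaptor also called DAP12, read 4.66, 4.23 and 7.35 in WT PMSG, 5.81, 7.50 and 6.52 in bERKO PMSG, 5.74, 6.58 and 5.94 in WT hCG, and 8.01, 7.51 and 7.15 in bERKO hCG. Cx3cr1, the fractalkine receptor of monocytes and resident macrophages, read 5.86, 5.33 and 6.21 in WT PMSG, 4.50, 5.75 and 5.87 in bERKO PMSG, 4.69, 4.42 and 5.07 in WT hCG, and 5.75, 6.08 and 7.03 in bERKO hCG. Its WT hCG arrays lay below all of WT PMSG and all of bERKO hCG.

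The Fc receptor genes were present on nearly all arrays. Fcer1g, the shared signalling chain, ran from 6.20 to 7.99 and Fcgr3, a low-affinity IgG receptor, from 4.52 to 7.41. Mean Fcgr3 was 5.52 ± 0.86 in WT PMSG, 6.37 ± 0.48 in bERKO PMSG, 6.24 ± 0.56 in WT hCG and 7.03 ± 0.37 in bERKO hCG (SD, n = 3). Several widely used macrophage markers varied less on the probe sets used. That of Csf1r stayed between 5.58 and 6.42, while another of its probe sets reached 9.52. Adgre1 stayed between 4.61 and 5.75, and the endosomal protein Cd68 between 5.31 and 6.71. Cd14, the lipopolysaccharide co-receptor, was above the floor level on 1 array (5.05, bERKO PMSG replicate 1). Cd163, the haemoglobin scavenger receptor, ran from 4.13 to 6.30 and overlapped in all groups. Aif1 (IBA1) was above the floor level on 3 arrays, at 6.83 on bERKO PMSG replicate 3 and at 5.70 and 6.02 on bERKO hCG replicates 2 and 3. The integrin chains Itgam (CD11b) and Itgax (CD11c) ran from 4.41 to 5.86 and from 4.20 to 6.46.

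The 3 C1q chain genes did not run together. C1qb read 4.32, 6.49 and 7.36 in WT PMSG, 4.10, 7.98 and 9.45 in bERKO PMSG, 5.94, 5.32 and 6.24 in WT hCG, and 9.48, 10.07 and 6.97 in bERKO hCG. The SD of C1qb was 2.76 in bERKO PMSG and 1.64 in bERKO hCG, against 0.47 in WT hCG. C1qc was at or under 4.87 on 10 arrays and reached 6.80 and 6.29 on bERKO hCG replicates 1 and 2, with 4.21 on replicate 3. C1qa exceeded the floor level on 3 arrays, with 5.41 and 6.58 on bERKO PMSG replicates 2 and 3 and 6.09 on bERKO hCG replicate 2. On bERKO hCG replicate 1, where C1qb and C1qc were high, C1qa read 4.36.

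Probe sets of the same gene disagreed. The 33 genes had 49 one-gene probe sets, 25 genes having a single one and 8 several, and in 0 of those 8 did all probe sets peak on the same array. The probe sets used for C1qb, Laptm5 and H2-Aa carry the suffix x_at, by which Affymetrix marks probes that can also match other transcripts. Of the other C1qb probe sets, the second x_at one ran from 4.54 to 9.10 and was also highest on bERKO hCG replicate 2, whereas the one without that suffix stayed between 4.31 and 6.26. The hCG change of C1qb in bERKO ran from -0.16 to 1.66 over its 3 probe sets, and its genotype difference after hCG from 1.01 to 3.01. Laptm5 had 5 probe sets, whose hCG changes in bERKO ran from -1.26 to 2.33, the highest being the one used. Csf1r showed the reverse. A probe set that was not used, because its mean was lower, read 4.96, 4.16 and 4.42 in bERKO PMSG and 8.16, 9.52 and 6.43 in bERKO hCG, a change of 3.52 against 0.08 for the one used. That probe set also reached 7.88 on WT PMSG replicate 3 and 7.97 on WT hCG replicate 2. The second probe set of Cd53 stayed between 4.06 and 5.31.

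**Figure D2:**
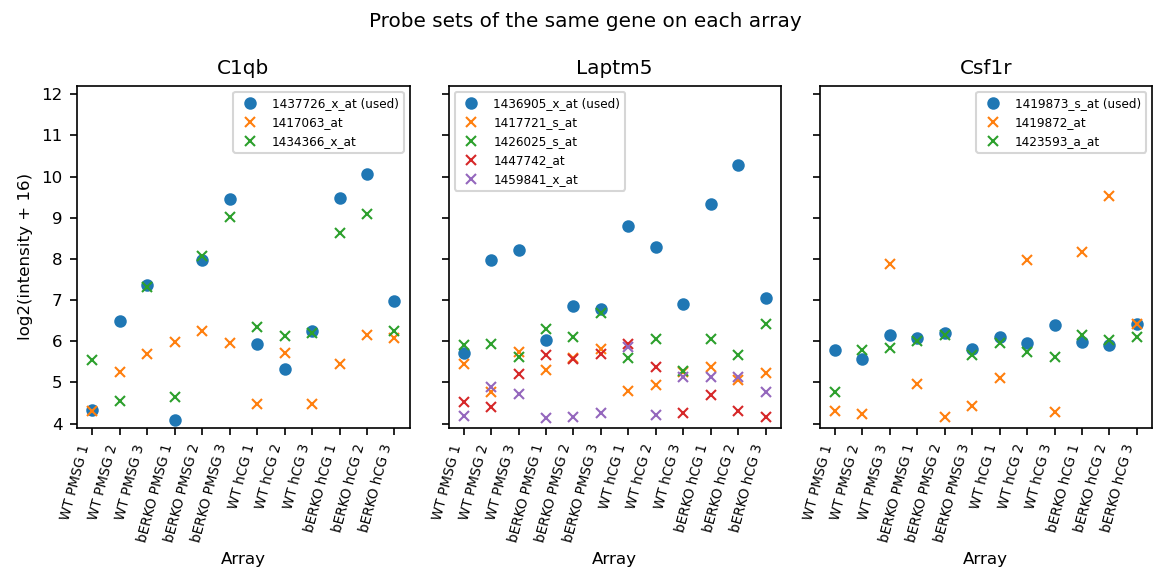
Level of every one-gene probe set of C1qb, Laptm5 and Csf1r (log2(intensity + 16), vertical axis) on each of the 12 arrays (horizontal axis); filled circles mark the probe set used and crosses the others. The C1qb and Laptm5 probe sets used reach 10.07 and 10.28 on bERKO hCG replicate 2, where other probe sets of the same genes read lower, and a Csf1r probe set that was not used reaches 9.52 there.

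The remaining classes were dim. Of the MHC class II genes, which present peptides on antigen-presenting cells, H2-Aa ran from 4.38 to 7.34, H2-Eb1 from 4.20 to 7.14 and Cd74, the invariant chain, from 4.21 to 6.30. Their highest arrays lay in 3 different groups, and the groups overlapped in every comparison. S100a8 and S100a9, the paired calcium-binding proteins of neutrophils, did not exceed 6.04. S100a9 read 4.36, 4.46 and 4.25 in WT PMSG and 5.23, 5.29 and 5.64 in bERKO PMSG, and S100a8 averaged 4.59 ± 0.63 and 5.69 ± 0.39 there (SD, n = 3). Cd3e, a chain of the T-cell receptor complex, read 4.20, 5.39 and 5.08 in WT PMSG, 5.84, 5.22 and 5.75 in bERKO PMSG, 4.27, 5.19 and 4.32 in WT hCG, and 4.42, 4.07 and 4.29 in bERKO hCG. All 3 bERKO hCG arrays of Cd3e were thus under the floor level. Its partner Cd3g ran from 4.21 to 5.57 and the B-cell receptor component Cd79a from 4.19 to 6.43, with no group apart. The inflammatory cytokine Il1b exceeded the floor level on 3 arrays, with a maximum of 5.69. The monocyte attractant Ccl2 did so on 2 arrays, at 5.59 and 5.66 on bERKO hCG replicates 1 and 2.

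After hCG in bERKO cells, 4 of the 33 genes rose and 1 fell. The risers were 2 pan-leukocyte genes, Cd52 (1.84, SE 0.47, adjusted p = 0.0193) and Cd53 (1.85, SE 0.56, adjusted p = 0.0382), and 2 macrophage genes, Lyz2 (2.06, SE 0.62, adjusted p = 0.0374) and Mrc1 (1.82, SE 0.45, adjusted p = 0.0166). Cd3e fell by 1.34 (SE 0.37, adjusted p = 0.0246). The groups did not overlap for any of the 5, nor for Laptm5, Fcer1g, Il1b and S100a9, in all 9 of 33 (27.3%, against 36.2% of all genes). In this comparison 18.9% of all genes were called, so 5 of 33 (15.2%) is no more than the background share. Among all genes 7.05% were called higher and 11.9% lower. At an unadjusted p under 0.05 there were 8 of 33 (24.2%, against 32.2% of all genes). Of all calls here 37.2% were rises, and that share was 24.3% when each array was centred on its median instead. The median change of the 33 genes was 0.52 against -0.19 for all genes. With median centring these were 0.35 and -0.41, and with the values as deposited 0.71 and -0.05. Laptm5 (2.33, adjusted p = 0.0766), C1qc (1.49, adjusted p = 0.0729), C1qb (1.66, adjusted p = 0.389) and Ctss (1.40, adjusted p = 0.296) did not pass. Changes of Csf1r (0.08), Cd68 (0.09), Adgre1 (-0.25) and Cd14 (-0.13) did not pass either, and the 95% intervals of the probe sets used reached at most 0.71 upward and -0.96 downward. Over the 3 probe sets of Csf1r the change ran from 0.08 to 3.52.

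The calls depended on single arrays. Without bERKO hCG replicate 1, Cd52 was at 1.47 (adjusted p = 0.0777), and without bERKO PMSG replicate 1 at 1.45 (0.0685). Mrc1 missed the threshold without bERKO hCG replicate 2 (1.70, adjusted p = 0.0588) or bERKO PMSG replicate 2 (1.61, 0.0544). Lyz2 missed it without bERKO hCG replicate 1 or 2, bERKO PMSG replicate 1 or 2, or WT PMSG replicate 2, at 1.81 to 2.06. Cd53 held in 5 of the 12 fits that left out 1 array, missing it without WT PMSG replicate 3, WT hCG replicate 2, any bERKO PMSG array or bERKO hCG replicate 1 or 2, and was at 1.37 without bERKO hCG replicate 2. As the mean of its probe sets Cd53 changed by 0.64 (adjusted p = 0.234). Cd3e missed it without any 1 of the bERKO arrays other than PMSG replicate 2, at -1.24 to -1.42, and at -1.10 with the values as deposited. With bERKO hCG replicate 3 left out, Laptm5 passed at 3.27 and C1qc at 2.27 (adjusted p = 0.0204 and 0.00245). With log2(intensity + 1), Cd53, Lyz2 and Mrc1 missed the threshold (adjusted p = 0.0593, 0.0898 and 0.0844).

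**Figure D3:**
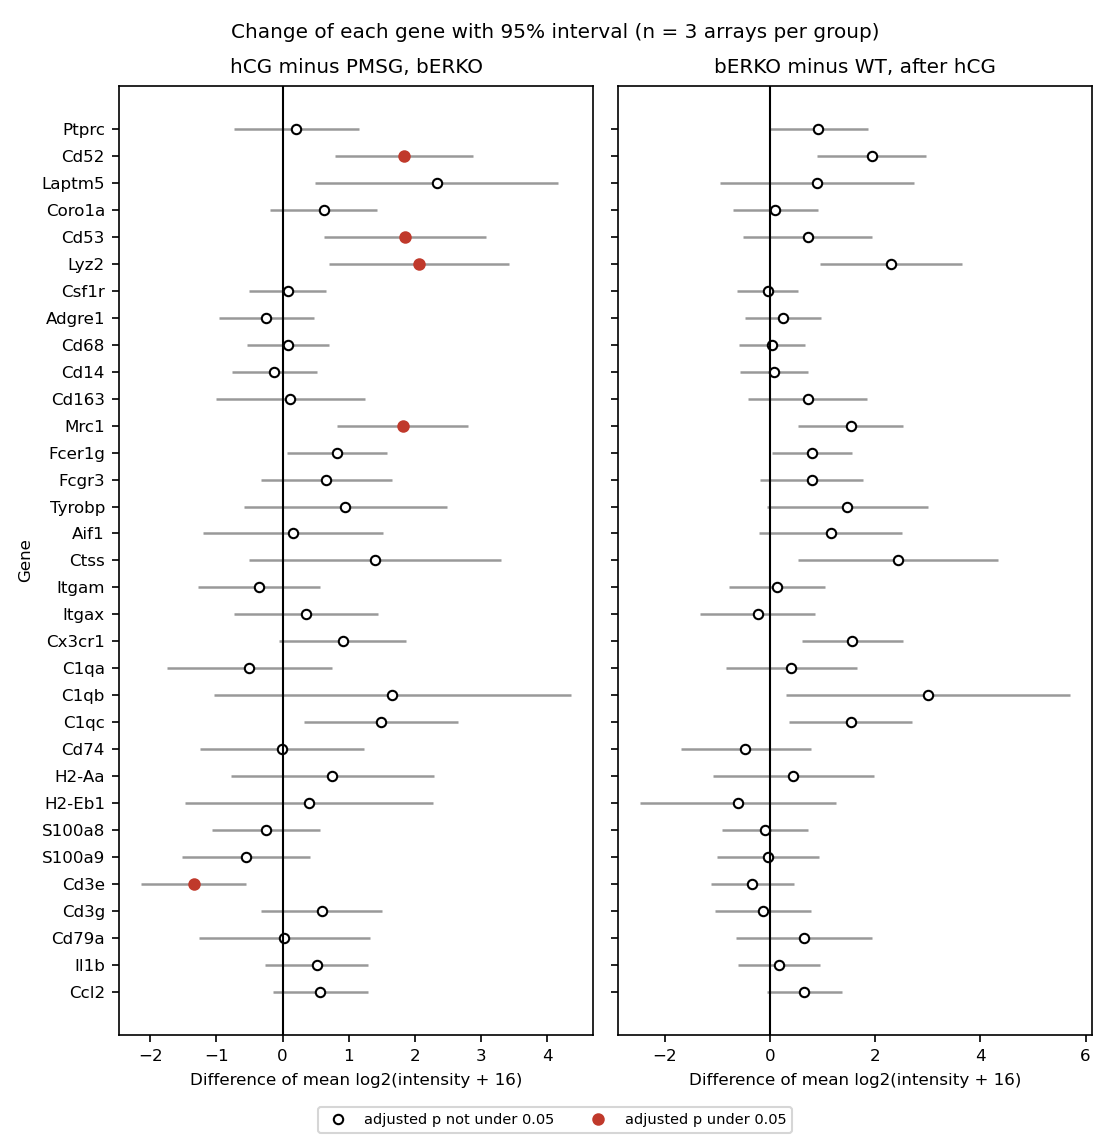
Change of each of the 33 genes (vertical axis) as a difference of mean log2(intensity + 16) (horizontal axis) with its 95% interval, for hCG minus PMSG in bERKO (left) and bERKO minus WT after hCG (right), n = 3 arrays per group; filled red points have an adjusted p under 0.05. Cd52, Cd53, Lyz2 and Mrc1 on the upper side and Cd3e on the lower side are the only filled points, all on the left, and C1qb has the widest intervals.

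Between genotypes after hCG, 0 of the 33 genes were called by limma, against 3.09% of all genes. At an unadjusted p under 0.05 there were 8 of 33 (24.2%, against 17.5% of all genes), all of them higher in bERKO. They were Cd52 (1.93, SE 0.47, adjusted p = 0.0518), Lyz2 (2.29, SE 0.62, 0.0717), Cx3cr1 (1.56, SE 0.44, 0.0812), Mrc1 (1.53, SE 0.45, 0.0968), C1qc (1.53, SE 0.53, 0.151), Ctss (2.44, SE 0.87, 0.161), C1qb (3.01, SE 1.24, 0.229) and Fcer1g (0.79, SE 0.35, 0.258). The groups did not overlap for 7 genes (21.2%, against 24.5% of all genes): Cd52, Lyz2, Mrc1, Fcer1g, Tyrobp, Cx3cr1 and C1qb, each higher in bERKO. The median of the 33 differences was 0.64, against -0.06 for all genes, and 25 of 33 were above 0. The median was 0.72 with each array centred on its median and 0.57 with the values as deposited. It fell to 0.28 without bERKO hCG replicate 2 and to 0.35 without WT hCG replicate 3. Cd52 passed without WT hCG replicate 3 (2.31, adjusted p = 0.031), bERKO PMSG replicate 1 (0.0456) or bERKO PMSG replicate 3 (0.0467). Lyz2 passed without WT hCG replicate 2 (2.89, adjusted p = 0.0431) and C1qc without bERKO hCG replicate 3 (2.30, adjusted p = 0.00975). Differences of Itgax (-0.24), Csf1r (-0.05), Cd68 (0.03), S100a8 (-0.09) and S100a9 (-0.04) did not pass. Over its probe sets the difference ran from -0.05 to 2.25 for Csf1r and from -0.36 to 1.56 for Cx3cr1.

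After PMSG alone, 0 of the 33 genes differed between genotypes by limma, in a comparison where 0.011% of all genes were called. At an unadjusted p under 0.05 there were 3 (9.09%, against 9.53% of all genes), S100a8 (1.10, adjusted p = 0.385), S100a9 (1.03, adjusted p = 0.491) and Cd68 (0.67, adjusted p = 0.486), each higher in bERKO. The groups did not overlap for 2 genes, S100a9 and Cd68 (6.06%, against 14.7% of all genes). The largest differences, of Ctss (1.33), Tyrobp (1.20), C1qa (1.18) and C1qb (1.12), had 95% intervals that included 0. Their highest bERKO PMSG array was replicate 3 for Ctss, C1qa and C1qb. Without that array the C1qb difference was -0.03. The median over the 33 genes was 0.18 against 0.04 for all genes.

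In WT cells, 0 of the 33 genes were called after hCG, against 2.08% of all genes. At an unadjusted p under 0.05 there were 4 (12.1%, against 17.1% of all genes). Ptprc was lower (-1.09, SE 0.43, adjusted p = 0.221) and so was Cx3cr1 (-1.07, SE 0.44, adjusted p = 0.235), while Cd68 (0.72, adjusted p = 0.219) and S100a8 (0.95, adjusted p = 0.218) were higher. The groups did not overlap for Ptprc, Cx3cr1 and Cd68 (9.09%, against 24.0% of all genes). The value for Cd52 was -0.99 (adjusted p = 0.321). The median of the 33 changes was 0.27 against -0.08 for all genes, and it was 0.04 without WT PMSG replicate 1.

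The hCG responses of the genotypes were compared directly as their difference, bERKO minus WT. In this test 0 of the 33 genes passed, against 1.31% of all genes, and 4 (12.1%, against 15.3%) had an unadjusted p under 0.05. These were Cd52 (2.82, SE 0.67, adjusted p = 0.0646), Cx3cr1 (1.99, SE 0.62, adjusted p = 0.15), Fcer1g (1.37, SE 0.49, adjusted p = 0.208) and S100a8 (-1.19, SE 0.53, adjusted p = 0.312). The values for Lyz2, Mrc1 and Cd53 were 1.38, 1.40 and 0.81, and that for C1qb was 1.89 with a 95% interval from -1.94 to 5.71. The rises of Lyz2, Mrc1 and Cd53 in bERKO were thus not shown to differ from WT. Cd52 passed without WT hCG replicate 3 (3.20, adjusted p = 0.0344) and C1qc without bERKO hCG replicate 3 (2.38, adjusted p = 0.0329). The comparisons share arrays: the bERKO hCG arrays enter the genotype contrast after hCG, the bERKO response and this difference.

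Some of the lists of markers of other cells moved on the same arrays. The 12 endothelial markers averaged between 6.61 and 7.40 on the bERKO hCG arrays and 5.17 to 5.90 on the other 9. Their summed intensity was 1433 to 2937 in bERKO hCG, 412 to 723 in WT PMSG, 315 to 470 in bERKO PMSG and 354 to 607 in WT hCG. Of these markers 4 of 12 were called higher in bERKO than in WT after hCG, where 3.09% of all genes were called. After hCG in bERKO 5 of 12 were called higher, where 7.05% of all genes were, among them Emcn (3.63, adjusted p = 0.000161) and Cdh5 (2.03, adjusted p = 0.0152). The 12 stroma and smooth muscle markers averaged 8.64, 8.50 and 7.41 on the bERKO hCG arrays. Elsewhere they ran from 5.80 to 7.94, and their summed intensity was 4319 to 16451 in bERKO hCG, 729 to 7097 in WT PMSG, 1010 to 4507 in bERKO PMSG and 1962 to 2726 in WT hCG. In this list 2 of 12 were called higher after hCG in bERKO (7.05% of all genes), Col1a2 (3.91, adjusted p = 0.0101) and Pdgfrb (2.62, adjusted p = 0.0411, holding in 10 of 22 alternatives). Granulosa markers averaged 11.12, 10.92 and 11.24 on the bERKO hCG arrays and 11.64 to 12.18 elsewhere, with 5 of 11 called lower after hCG in bERKO (11.9% of all genes). Oocyte markers averaged 9.13, 8.96 and 10.30 in bERKO PMSG and 5.98 to 8.60 elsewhere, highest on the replicate 3 array on which C1qa and Aif1 also peaked, and 6 of 11 were called lower after hCG in bERKO. Of 7 erythrocyte and platelet markers, Pf4 (2.17, adjusted p = 0.0109) and Ppbp (1.08, 0.0234) were called higher after hCG in bERKO and Itga2b (1.69, 0.0478) higher in bERKO than in WT after hCG. The call held in 21 of 21 alternatives for Pf4, 14 of 21 for Ppbp and 9 of 22 for Itga2b. Beside these calls stand 7.05% of all genes called higher after hCG in bERKO and 3.09% called between genotypes after hCG. The list as a whole did not rise after hCG in bERKO. Its 7 changes there ran from -1.23 to 2.17, with a median of -0.12 (the value of Itga2b) against -0.19 for all genes. Of the remaining lists, the 8 surface epithelium markers averaged 5.61 to 5.69 on the bERKO hCG arrays and 5.38 to 5.91 on the other 9. The 4 theca and interstitium markers measured averaged 10.97 to 11.04 on the bERKO hCG arrays and 9.66 to 11.63 on the other 9. Neither average thus stood apart there, but single genes were called. Of the 4 theca and interstitium markers, Star rose by 6.51 and Aldh1a1 fell by 1.55 after hCG in bERKO (adjusted p = 0.000547 and 0.00331). Star was also called higher after hCG in WT (4.03, 0.0345). Aldh1a1 was called lower in bERKO than in WT after hCG (-1.28, 0.0361). Of the surface epithelium markers, Epcam fell by 1.32 after hCG in bERKO (0.0472). No gene of all these lists was at the floor on all arrays. The part of these cells and of the Gapdh ratio in the leukocyte gene values was not tested. With both arrays of high Gapdh ratio left out, 3 of the 33 genes were called after hCG in bERKO, Cd52, Lyz2 and Mrc1. In that setting 19.8% of all genes were called.

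**Figure D4:**
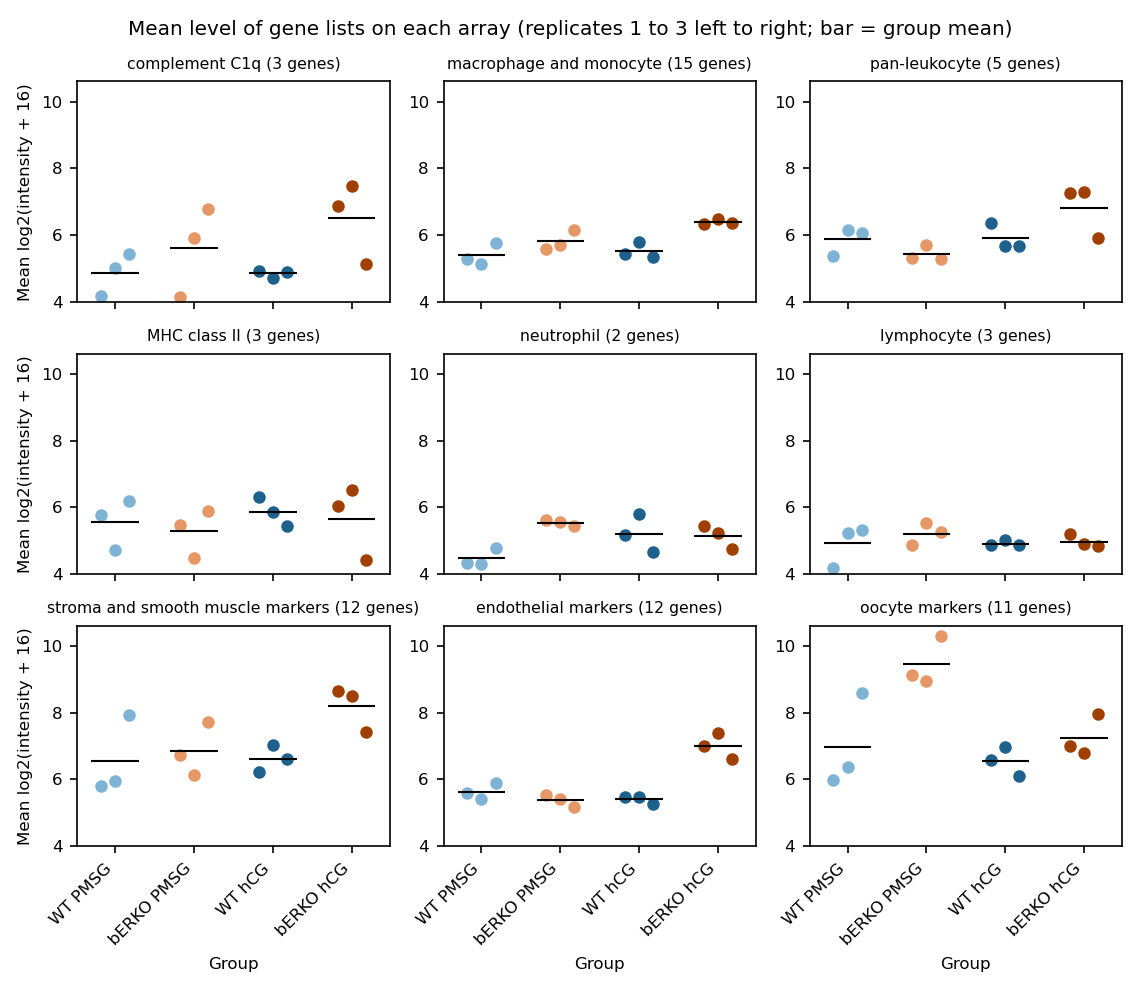
Mean level of each gene list on each array (log2(intensity + 16), vertical axis) in the 4 groups (horizontal axis); points are replicates 1 to 3 from left to right and bars the group means. The macrophage and monocyte genes read 6.35 to 6.48 on the bERKO hCG arrays and 5.14 to 6.15 on the others, the endothelial list rises on the same arrays to between 6.61 and 7.40, and the lymphocyte and neutrophil genes stay between 4.20 and 5.80.

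Other genes of the same pathways were read from lists that complete each class. The counts below stand beside 18.9% of all genes called after hCG in bERKO (7.05% higher, 11.9% lower), 2.08% in WT and 3.09% between genotypes after hCG. Of 27 further complement components and regulators, 2 were called higher and 1 lower after hCG in bERKO, 1 lower in WT and 0 in the other comparisons. The anaphylatoxin receptor C5ar1 rose by 3.60 (adjusted p = 0.0471) and the decay-accelerating factor Cd55 by 1.95 (0.038), each call holding in 11 of 22 alternatives. C8b, a chain of the membrane attack complex, fell by 2.64 (adjusted p = 0.00738) in bERKO. Masp1, a protease of the lectin pathway, fell by 1.20 in WT (adjusted p = 0.0478), which held in 5 of 22 alternatives. Of 23 further macrophage and monocyte genes, 2 were called higher after hCG in bERKO, the lysosomal protease Lgmn (4.83, adjusted p = 0.00032) and the scavenger receptor Msr1 (1.36, adjusted p = 0.029), and 0 lower. Lgmn read 4.64, 4.80 and 4.50 in bERKO PMSG and 9.58, 9.62 and 9.23 in bERKO hCG, against 6.50, 8.14 and 6.51 in WT hCG. Lgmn (2.43) and Lyz1 (2.88) were the 2 genes of that list called higher in bERKO than in WT after hCG (adjusted p = 0.0388 and 0.0379), holding in 11 and 10 of 22 alternatives. Lyz1 is a near-identical copy of Lyz2, and its probe sets may read both. Over the 3 probe sets of Lyz1 the genotype difference after hCG ran from 0.41 to 2.88.

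Of 20 further lymphocyte genes, 3 were called higher after hCG in bERKO, against 7.05% of all genes called higher and 18.9% called in all: the cytotoxic granule protease Gzmb (2.89, adjusted p = 0.0137), Cd247 (1.47, 0.0186) and Blk (1.24, 0.0478, holding in 6 of 22 alternatives). The changes of the 20 ran from -1.03 to 2.89, with a median of -0.15 against -0.19 for all genes. In WT, Blk changed by 1.56 after hCG without being called (adjusted p = 0.0675). Its difference of responses, bERKO minus WT, was -0.32. Gzmb read 8.80, 9.25 and 6.02 in bERKO hCG and 4.48, 4.22 and 4.12 in WT hCG, a difference of 3.75 (adjusted p = 0.0184). The list did not follow it, with a median genotype difference after hCG of 0.07 and a lowest of -0.76. Igk, the immunoglobulin kappa locus, read 7.76, 9.18 and 9.62 in WT PMSG and at most 5.46 on the other arrays. It was called lower in bERKO than in WT after PMSG (-4.38, adjusted p = 0.0123) and lower after hCG in WT (-4.07, adjusted p = 0.00531). The other probe sets of Igk did not run with it, since their changes after hCG in WT reached 0.28. Of 11 further MHC class II and dendritic cell genes, H2-Oa fell by 1.58 and Zbtb46 rose by 1.92 after hCG in bERKO (adjusted p = 0.00811 and 0.0261). Zbtb46 changed about as much in WT, by 1.95, without being called (adjusted p = 0.0835). Of 16 further neutrophil and mast cell genes, 0 were called in any comparison by limma. Of 30 chemokines, cytokines and their receptors, 5 were called higher and 1 lower after hCG in bERKO, about the share of all genes called (18.9%), led by the chemokine receptor Cxcr4 (4.27, adjusted p = 0.00109), Il6 (1.61, 0.00398), Il33 (1.52, 0.00874) and the interleukin-1 receptor Il1r1 (2.80, 0.0297). Cxcr4 was also called higher in WT (3.97, adjusted p = 0.0127), and Il6 was called higher in bERKO than in WT after hCG (1.38, adjusted p = 0.0361, holding in 9 of 21 alternatives). Other probe sets of the named genes gave changes in bERKO as low as -0.48 for Cd247, -0.15 for Msr1, -0.04 for Col1a2 and 0.10 for Zbtb46. The lowest were 0.24 for C5ar1, 0.48 for Pdgfrb, 0.53 for Cdh5 and 0.56 for Il1r1.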

How the data were processed

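RNA from laser-captured granulosa cells was hybridised, 1 sample per array, to one-colour Affymetrix mouse arrays after PicoPure isolation and NuGEN amplification, per the labels. The authors deposited linear intensities, 1 value per probe set, with every array scaled to a 2% trimmed mean of 500.0. The software behind these signals is not named in the sources used. Of 45101 probe sets, 64 controls were left out and 45037 were quantile normalized, then taken as log2(intensity + 16). Genes came from 34945 probe sets that name 1 gene; 932 name several and 9160 are unnamed here. Dim genes were kept. Precision is limited by 3 arrays per group.

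R 4.3.3 with limma 3.58.1 and statmod 1.5.0 fitted group means over all 12 arrays in 5 two-sided contrasts, adjusted by Benjamini-Hochberg over 18193 genes each. The fit was tested on simulated data. The members and the gene lists were chosen with earlier results of these data known. All 33 members are described. From other lists the text names up to 4 called genes per contrast, smallest p first, and Esr2. Alternatives covered scaling, offset, dim genes, probe sets, array weights, arrays of high Gapdh ratio, a replicate block and each array left out; those of genes outside the 33 were added after the data were seen. Promoter windows are RefSeq's. Figures used Python 3.11.15 and matplotlib 3.10.9.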

Additional observations from a re-analysis of the deposited data

Results flagged for a closer look

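Among genes named from the other lists, 4 had hCG responses that differed between the genotypes by the test of the difference itself (limma, bERKO minus WT). Lgmn rose in bERKO and differed by 4.29 (adjusted p = 0.0251), which held in 12 of 21 alternatives. The difference also holds a lower start in bERKO. After PMSG, Lgmn was 1.86 lower in bERKO than in WT (not called), with every bERKO PMSG array under the floor level. Igk differed by 3.88 (adjusted p = 0.0239), which rests on its fall in WT and held in 11 of 21 alternatives; its 4 probe sets gave -0.53 to 3.88. The endothelial genes Emcn and Cdh5 differed by 3.70 and 4.03 (adjusted p = 0.00819 and 0.0228), and these calls held in 21 and 16 of 21 alternatives. The Cdh5 difference also holds a fall in WT about as large as its rise of 2.03 in bERKO. That fall was not called (adjusted p = 0.0644). The 2 probe sets of Cdh5 gave differences of 1.62 to 4.03. Groups of 3 arrays are too small for a test of single outlying arrays.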

How the results depend on the processing

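The number of members called after hCG in bERKO was 5 in the analysis as reported, beside 18.9% of all genes. It was 2 with log2(intensity + 1), 3 without both arrays of high Gapdh ratio and 7 with array weights. Of all genes, 15.5%, 19.8% and 20.4% were called in these settings. The number ran from 1 to 6 with 1 array left out, beside 12.7% to 21.2% of all genes. With 1 array left out, the lowest counts came without bERKO PMSG replicate 1, bERKO hCG replicate 1 or bERKO hCG replicate 2. The median change there, 0.52, was 0.21 with log2(intensity + 64) and 0.91 without dim genes, a filter that kept 17 of 33 members, and ran from 0.25 to 0.54 with 1 array left out. Between genotypes after hCG the count of 0 became 1 (Cd52) with median centring, without dim genes or with the mean of probe sets. Of all genes, 2.94%, 5.53% and 4% were called there. The count became 3 (Cd52, Lyz2 and Mrc1) with log2(intensity + 64), beside 4.85% of all genes. It became 4 (these without Mrc1, with C1qc and Cx3cr1) with array weights, beside 6.81%. With 1 array left out it ran from 0 to 1, beside 0.77% to 3.63%. The median genotype difference of 0.64 became 0.28 with log2(intensity + 64) and ran from 0.28 to 0.76 with 1 array left out. In WT the median of 0.27 was 0.59 with log2(intensity + 1) and ran from 0.04 to 0.43. For the difference of responses the count of 0 became 1 (Cd52) with array weights, beside 2.31% of all genes. It ran from 0 to 1 with 1 array left out, beside 0.445% to 2.33%. The median of 0.28 became 1.10 without dim genes and 0.56 without both arrays of high Gapdh ratio, with a range of 0.22 to 0.44. After PMSG the count stayed 0 in every alternative run, where at most 0.143% of all genes were called. The median there ran from 0.09 to 0.32 with 1 array left out. The causes were not tested. No member that was called changed sign, in 109 refits of the 5 called changes, of which 29 lost the call. Among the 160 changes not called, 24 of 3408 refits gave a call and 205 changed the sign.

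With the replicate block the counts of called members were 0, 0, 0, 5 and 0, as without it. Of all genes, 0.011%, 2.25%, 0.813%, 17.3% and 0.709% were called with the block. Same-numbered arrays correlated at -0.08 to 0.12 in 18 pairs, with 1 pair over 0.1. These values gave no sign that the numbers pair the samples. With 3 arrays per group they cannot exclude a shared litter or day. A fit of only the groups compared gives no value for the difference of responses. With 3 arrays per group and most members near the floor, a change smaller than the 95% intervals would not be seen.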
